A study of Mus musculus with 37 samples.

Results

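Myc and 39 genes for building ribosomes were followed in murine jejunal organoids and in their sorted Lgr5-EGFP+ cells, with and without the neuropeptide VIP and with and without irradiation. The genes were taken from a list of 40 symbols, and a symbol was kept where it had at least 20 UMIs summed over a count table. All 40 met this in each of the 3 tables, out of 27407 genes listed for whole organoids, 20500 for Lgr5-EGFP+ cells and 27547 for the irradiation cohort. The list holds Myc, 3 nucleolar chaperones, 3 core proteins of box C/D and 4 of box H/ACA snoRNPs, 3 factors of rRNA transcription, 13 of small subunit maturation and 13 of large subunit maturation.

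Myc is a transcription factor that binds DNA as a dimer with Max and is known to drive cell growth, in part by raising the genes for ribosome production. In the nucleolus, RNA polymerase I transcribes the rRNA precursor, snoRNPs guide its chemical modification, and many assembly factors fold, cut and export the small and large subunits. In the intestinal crypt, stem and transit amplifying cells depend on Wnt signals, and Myc is a well known target of this pathway.

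Whole organoids came from C57Bl6/J mice, 3 untreated and 4 treated with 100 nM VIP for 72 h. Lgr5-EGFP+ cells were sorted from jejunal organoids of Lgr5-EGFP-IRES-CreERT2 mice, in which EGFP marks cells with an active Lgr5 gene, 4 untreated and 4 with 100 nM VIP for 72 h. In the irradiation cohort, the same kind of sorted cells came from organoids given 6 Gy of X-rays or none, each without VIP or with 100 nM VIP for 48 h, with 4 samples in each of the 4 groups. Mice of both sexes were 6 to 12 weeks old, and each organoid line stands for 1 mouse, so that a mouse gave cultures to several groups of an experiment. The EGFP gate is itself driven by Lgr5, and which reporter cross was used in the irradiation cohort is not given in the sources used here. Each molecule captured at the 3′ end of a transcript was counted once by its UMI, and levels are given as UMIs per 1000000 UMIs of the library (CPM) after TMM scaling. Samples held 3722716 to 6330404 UMIs in whole organoids, 575242 to 1104126 in Lgr5-EGFP+ cells and 1075715 to 1876729 in the irradiation cohort. The tables were scaled separately and the genes differ in their 3′ ends, so levels were compared between samples of a table and not between tables or genes.

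Among the whole organoid libraries, the 2 labelled as the VIP culture of mouse 3 differed from each other. Between the libraries of this culture, 17 of the 40 members differed by more than 1.25-fold, against 1 to 7 in the other 5 cultures with a pair of libraries. Gar1 had 250 CPM in the first and 162 CPM in the second, and Utp20 had 11.8 and 22.9 CPM. The only untreated library of mouse 3 had 252 and 10.7 CPM, near the first. Libraries of the other mice had 128 to 175 and 13.8 to 31.3 CPM, ranges that held the second and not the first. Which of the libraries is unusual cannot be told from these values. Counts of members by direction and overlap in whole organoids are therefore also given without the second library. So are the members that then passed and the within-mouse directions of Gar1 and Ebna1bp2. The fitted fold changes of the other genes named there use all libraries, apart from the alternatives. All 12 stem cell markers had UMIs in every group, and in any sample the summed level of the immune cell markers was at most 4.39 CPM, that of the endothelial markers at most 4.52 CPM and that of the fibroblast markers at most 73.6 CPM.

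The Myc–Max dimer is known to bind the sequence CACGTG, and the promoters of the members were searched for it. RefSeq promoters on GRCm38.p6, from 250 bases before to 50 bases after a gene's start, were found for 35 of the 40 members. CACGTG, which reads the same on both strands, was present in 6 of their 39 promoters (15.4%), against 7.15% of all 32851 promoters in the table. The matches are shown with their flanks, 5′ to 3′ on the strand of the gene, with CACGTG in capitals, because they are the places in the listed promoters that carry the letters of the Myc motif.
Nop2: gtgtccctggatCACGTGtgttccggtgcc
Pes1: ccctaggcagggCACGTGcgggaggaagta
Tsr1: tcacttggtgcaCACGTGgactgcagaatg
Utp20: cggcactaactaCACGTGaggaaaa
Utp4: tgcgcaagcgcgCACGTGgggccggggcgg
Wdr43: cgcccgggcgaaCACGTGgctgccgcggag
On GRCm38.p6 these windows lie at chr6:125131811-125131840 (plus strand) for Nop2, chr11:3963965-3963994 (plus) for Pes1, chr11:74898092-74898121 (plus) for Tsr1, chr10:88826765-88826789 (minus) for Utp20, chr8:106893643-106893672 (plus) for Utp4 and chr17:71616220-71616249 (plus) for Wdr43. Counted from 1 at the start of the gene, the motif began at base 3 in Pes1, 16 in Utp4, 18 in Wdr43, 25 in Tsr1 and 38 in Utp20, and in Nop2 it began at base −60, upstream of the start. The matches describe the letters of these windows and no binding was measured.

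A property shared by several members, which the list did not use, is that they host small nucleolar RNAs in their own transcription units. In GENCODE M21 on GRCm38, 7 of the 40 members (17.5%) contained 21 snoRNA genes on their strand, against 1.4% of the 16966 protein-coding genes in the tables. Nop56 held 5, Nop58 4, and Ncl, Wdr43 and Gnl3 3 each, while Tsr1 held 2 and Dkc1 1. The members lay on 17 chromosomes. Myc spans chromosome 15 from 61985391 to 61990374, Ncl chromosome 1 from 86344719 to 86359400 and Npm1 chromosome 11 from 33152287 to 33163206. Exons of 16 members overlapped exons of another gene on the opposite strand, among them Dkc1 with Mpp1, Tsr1 with Srr, Dimt1 with Kif2a and Noc2l with Samd11 within their last kilobase. Whether the counting used the strand is not given in the sources used here, so the counts of these genes are uncertain. Mrto4 has 2 named pseudogenes that may share its reads.

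With VIP in whole organoids no member passed the test, while 2 of 12 listed partners and relatives of Myc, Mxd1 and Mxi1, rose. Mxd1 and Mxi1, which pair with Max and repress targets of Myc, were higher with VIP in 3 of 3 mice. None of the 40 members passed the threshold of 0.05 for the adjusted p of edgeR's quasi-likelihood F test (Benjamini-Hochberg, over 12727 genes), where 4.82% of all genes did, 3.72% higher and 1.1% lower. At an unadjusted p under 0.05 the test held 2 members, Gnl3 and Gar1, both lower, against 16.4% of all genes, and DESeq2 called 0 members (2.18% of all genes) and had 0 at this unadjusted level. Mouse 4 had no untreated culture and added nothing to the fold changes.

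Myc had 190, 157 and 219 CPM in untreated organoids of mice 1 to 3 and 171, 136 and 209 CPM with VIP, with 202 CPM in VIP-treated mouse 4. It was lower in each of the 3 mice, by less than the difference between mice, and the groups overlapped. The fitted log2 fold change was −0.14 (SE 0.09, 95% interval −0.33 to 0.05, edgeR adjusted p = 0.485). With the first technical library of each culture alone it was 0.03.

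Mxd1 had 39.4, 29.9 and 29.5 CPM in untreated organoids and 107, 148, 53.9 and 87.7 CPM with VIP. Every VIP-treated culture was above every untreated one. Its log2 fold change was 1.59 (SE 0.19, edgeR adjusted p = 0.000232), and it ranged from 1.19 to 1.86 over 11 alternatives, passing in 10 of them but not without the block on mouse (edgeR adjusted p = 0.0508). Mxi1 had 60.6, 57.3 and 39.2 CPM without VIP and 80.2, 94, 47.5 and 75.5 CPM with it, so that the groups overlapped although all 3 mice rose. Its log2 fold change was 0.48 (SE 0.11, edgeR adjusted p = 0.0239), and it passed in 6 of the 11 alternatives, with an edgeR adjusted p of 0.62 without the block. The other 10 of the 12 listed partners and relatives of Myc did not pass, including Max at −0.21 (SE 0.13, edgeR adjusted p = 0.46). Also among these 10, Mxd4 was at −0.26 (SE 0.12, edgeR adjusted p = 0.312) and lower in all 3 mice. Mxd3 was at 0.19 (SE 0.22) and Mnt at 0.09 (SE 0.19). Among 32 other textbook targets of Myc, Ldha, a glycolytic enzyme, rose by a log2 fold change of 0.49 (SE 0.09, edgeR adjusted p = 0.00613), from 3250, 2560 and 1620 CPM to 3920, 3740, 2520 and 4030 CPM. Without the block its edgeR adjusted p was 0.591, and it passed in the other 10 alternatives. None of this list fell past the threshold, 25 of the 32 were fitted below 0 and their median was −0.12.

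Of the 3 nucleolar chaperones, 2 were fitted below 0 and 1 above, with none past the threshold. Ncl, which binds and chaperones rRNA precursors, had 989, 1010 and 835 CPM without and 909, 910, 888 and 854 CPM with VIP, a log2 fold change of −0.06 (SE 0.09). Npm1, a chaperone of ribosome assembly and export, had 640, 656 and 700 CPM against 636, 537, 643 and 636 CPM, with a log2 fold change of −0.14 (SE 0.09, edgeR adjusted p = 0.493). It was lower with VIP in 3 of 3 mice. Treated mouse 2 was lower than all other cultures, and the remaining treated values overlapped only the lowest untreated one.

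Among snoRNP proteins, all 7 were fitted below 0. Fbl, the methyltransferase of box C/D snoRNPs, was low in this table, with 8.15, 9.56 and 8.58 CPM untreated and 7.54, 6.16, 9.49 and 5.34 CPM with VIP, and its log2 fold change of −0.20 had an SE of 0.22. Dkc1, the pseudouridine synthase of box H/ACA snoRNPs, had 162, 149 and 183 CPM against 152, 132, 156 and 153 CPM (log2 fold change −0.16, SE 0.09, edgeR adjusted p = 0.414). Gar1, another protein of these particles that is outside the naming rule and given because its unadjusted p was under 0.05, had 164, 150 and 268 CPM without and 149, 128, 220 and 171 CPM with VIP. The groups overlapped, with mouse 3 the highest in each, and the log2 fold change was −0.22 (SE 0.09, edgeR adjusted p = 0.229). Before TMM scaling, Gar1 had 252 CPM in the untreated culture of mouse 3. The VIP libraries of this mouse had 250 and 162 CPM, so its drop came mostly from the second library, which differed from the first. Without that library Gar1 was still lower in every mouse.

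Of the factors for subunit maturation, Gnl3, a nucleolar GTPase also known as nucleostemin, came closest to the threshold. It had 183, 195 and 190 CPM in untreated and 162, 149, 164 and 154 CPM in VIP-treated organoids, without overlap. Its log2 fold change was −0.26 (SE 0.09, 95% interval −0.46 to −0.06, edgeR adjusted p = 0.155). Groups without overlap were seen for 5 members that were lower (4.08% of all genes) and for 0 that were higher (5.63%). Without the second library of VIP-treated mouse 3 there were 3 lower without overlap, Gnl3, Nop58 and Wdr12 (4.3% of all genes). At the other ends of the range lay Dimt1, an rRNA dimethyltransferase, at −0.28 (SE 0.21), Utp15, of the small subunit processome, at −0.25 (SE 0.13), and Rrp1b at 0.15 (SE 0.11), Bysl at 0.07 (SE 0.12) and Tsr1 at 0.06 (SE 0.12).

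The members' fold changes leaned to lower values in whole organoids. Of the 40, 34 were fitted below 0, where 50.7% of all genes were, with a median of −0.14 on the log2 scale against −0.00 over all genes. The same direction in all 3 mice was seen for 17 members that were lower (18.7% of all genes) and for Rrp1b that was higher (19.5%). The median within-mouse difference over the members was −0.08, −0.21 and −0.08 in mice 1 to 3. For 38 of the 40 members the 95% interval lay within a 1.5-fold change either way. These counts describe the list and no test was made of it.

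Without the second library of VIP-treated mouse 3, 2 members passed the threshold, Gnl3 at −0.27 (edgeR adjusted p = 0.0441) and Nop14 at −0.30 (edgeR adjusted p = 0.048). The fit then held 32 of 40 members below 0 and a median of −0.12, but the within-mouse median of mouse 3 was 0.04, and 12 members were lower in all 3 mice (23.5% of all genes). Without mouse 3, 3 members passed, all lower, namely Gnl3, Nop14 and Wdr43, the last 2 chosen after their values were seen. The share of all genes past the threshold in these refits is not given here, so these counts were not set against it.

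The further maturation factors were mostly fitted below 0 in whole organoids, and the other lists of the pathway lay on both sides. Of 41 further factors of small subunit maturation, 0 passed and 34 were fitted below 0 (median −0.09). Of 43 further factors of large subunit maturation, 2 were lower past the threshold and 32 were fitted below 0 (median −0.11). These were Nle1 at −0.51 (SE 0.13, edgeR adjusted p = 0.0361) and Npm3, a relative of Npm1, at −0.74 (SE 0.19, edgeR adjusted p = 0.0385). Nle1 had 32.4, 33.5 and 38.9 CPM without and 24.9, 20.4, 28.5 and 26.5 CPM with VIP, and Npm3 had 13.1, 12.3 and 53.2 CPM against 7.89, 11.1, 24.6 and 10.9 CPM. Each passed in 5 of 11 alternatives, with edgeR adjusted p of 0.33 and 0.779 without the block, and for Npm3 the untreated culture of mouse 3 was far above the rest. None of 14 further RNA polymerase I factors (9 below 0, median −0.04), 10 snoRNP assembly factors (5 below 0, median 0.00) or 13 exosome genes (7 below 0, median −0.01) passed, and 5 of the 12 Myc partners and relatives were below 0 (median 0.05).

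Other cell types moved in the same samples. Of 10 goblet cell markers 7 rose with VIP, with a summed level of 5420 to 7370 CPM untreated and 7800 to 9550 CPM treated. Of 14 enterocyte markers, 4 rose and 1 fell, with sums of 14200 to 14600 CPM and 11500 to 14700 CPM. None of 12 stem cell markers (sums 2840 to 5260 and 2340 to 4450 CPM) or 26 genes of cycling cells (2970 to 3230 and 2900 to 3310 CPM) passed. Nor did any of 8 Paneth cell markers, 7 of them fitted above 0, or of 7 tested tuft cell markers, all fitted below 0 (median −0.60). Of 10 enteroendocrine markers Cck rose, and of 15 p53 targets Cdkn1a and Plk2 rose. The part of these shifts in the members' values and in Mxd1 was not tested. In RNA of whole cultures, fewer cells of a type and less RNA per cell cannot be told apart.

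**Figure D1:**
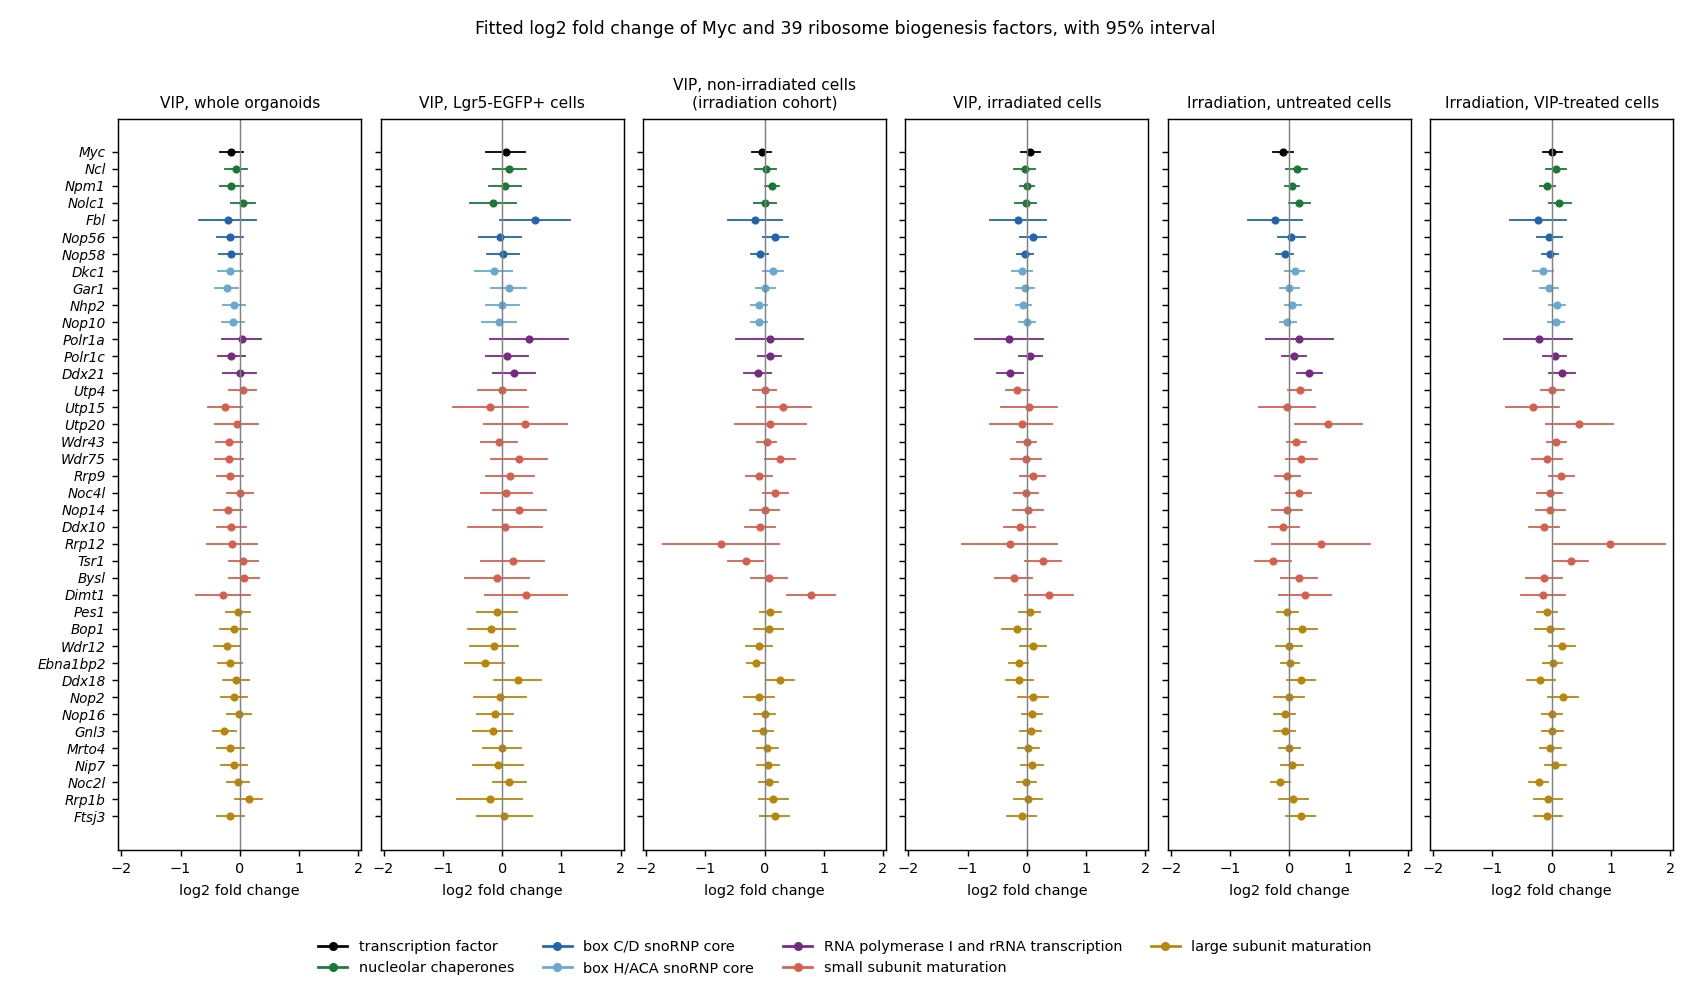
Fitted log2 fold changes of the 40 members (points) with 95% intervals (lines) from edgeR in 6 comparisons, 1 panel each, coloured by role. Rrp12 could not be tested in Lgr5-EGFP+ cells and has no point there. In whole organoids 34 of 40 points lie below 0, and no member passed the adjusted threshold in any panel.

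In sorted Lgr5-EGFP+ cells, VIP for 72 h gave no call among the members, with fold changes to both sides of 0. Of the 39 members with enough counts, which left out Rrp12, 0 passed the threshold, where 0.0885% of 6778 genes did, 0.059% higher and 0.0295% lower. No member had an unadjusted p under 0.05 in edgeR (5.5% of all genes) or in DESeq2, which called 0 members (0.00976% of all genes). The members were fitted above 0 in 21 cases and below 0 in 18 (50.3% of all genes), with a median of 0.01.

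Myc had 163, 139, 106 and 149 CPM without VIP in mice 1 to 4 and 129, 145, 162 and 147 CPM with it. The lowest value was the untreated culture of mouse 3 and the groups overlapped, with a log2 fold change of 0.06 (SE 0.16, 95% interval −0.27 to 0.39). Ncl had 860, 1070, 696 and 893 CPM against 933, 926, 1030 and 909 CPM (0.12, SE 0.14), and Npm1 1100, 1120, 1130 and 1050 CPM against 1130, 1160, 1080 and 1190 CPM (0.05, SE 0.13). Both fold changes were smaller than their standard errors, and the direction for Myc and Ncl rested on mouse 3. Without mouse 3 they were −0.11 and −0.03.

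Fbl had the largest fitted rise, from 20.1, 36.6, 22 and 20.5 CPM to 39.2, 30.1, 34.1 and 42 CPM, higher in 3 of 4 mice. Its log2 fold change was 0.55 (SE 0.29, 95% interval −0.03 to 1.14, edgeR adjusted p = 0.884). Polr1a, the large subunit of RNA polymerase I, followed at 0.45 (SE 0.32), Dimt1 at 0.40 (SE 0.34). At the other end lay Ebna1bp2, a factor of large subunit maturation, with 161, 148, 149 and 149 CPM without and 141, 92.2, 140 and 124 CPM with VIP. All 4 mice were lower and the groups did not overlap (1.2% of all genes), yet the fold change of −0.29 (SE 0.16) had an edgeR adjusted p of 0.884. Dkc1 was at −0.14 (SE 0.15), Rrp1b at −0.21 (SE 0.27) and Utp15 at −0.20 (SE 0.31).

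Of the 39 intervals, 26 lay within a 1.5-fold change. These samples had the fewest UMIs, and the median SD of a member between mice was 0.26 untreated and 0.22 with VIP on the log2 scale, against 0.13 to 0.18 in the groups of the other experiments, and the part of each in the width of the intervals was not tested. Only Ebna1bp2 was lower in every mouse (6.4% of all genes), 0 members were higher in every mouse (7.26%), and 0 were higher without overlap (1.43%). None of the further genes of the pathway passed, namely 39 small subunit factors, 39 large subunit factors, 10 RNA polymerase I factors, 8 partners of Myc and 31 textbook targets with enough counts. Mxd1 had 3.35, 15.9, 1.84 and 6.84 CPM without and 5.61, 9.41, 1.71 and 11.3 CPM with VIP, too few counts for the test. Among markers, 23 of 26 cycling genes and 10 of 10 tested stem cell genes were fitted above 0 with none past the threshold, and the goblet cell gene Fcgbp fell. Their part was not tested.

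Whether the VIP effect on the members differed by compartment was tested in 1 model of 15 samples. Each compartment had its own experiment, with its own mice, mouse strain and sequencing depth. The model therefore could not separate a difference of compartment from one of experiment, and the part of each was not tested. No member passed for this difference in edgeR (0.147% of 10186 genes) or in DESeq2 (0.296%), and no member had an unadjusted p under 0.05 in edgeR (6.24% of all genes) or in DESeq2. The difference was coded as Lgr5-EGFP+ cells minus whole organoids. It was fitted above 0 for 31 of 40 members, Rrp12 being among the 40 although its counts were too few in Lgr5-EGFP+ cells alone, where 51.7% of all genes were, with a median of 0.13 against 0.01 over all genes. Myc stood at 0.20 (SE 0.19, 95% interval −0.20 to 0.59), Ncl at 0.18 (SE 0.18), Npm1 at 0.19 (SE 0.16), Dkc1 at 0.02 (SE 0.17) and Fbl at 0.76 (SE 0.37, edgeR adjusted p = 0.791).

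**Figure D2:**
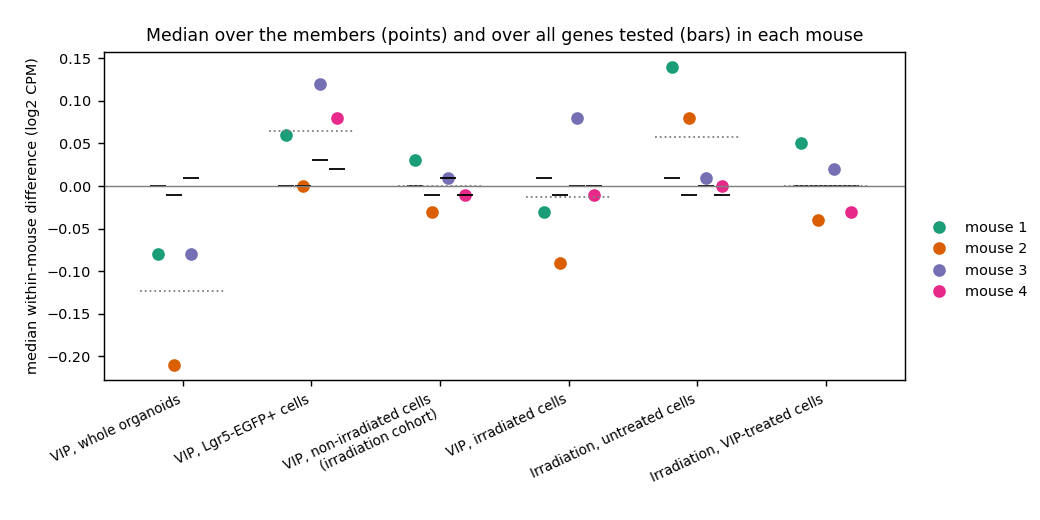
Median over the members of the within-mouse difference in log2 CPM (coloured points, 1 per mouse), the same median over all genes tested (short black bars) and the mean over mice (dotted line), for 6 comparisons. The 3 mice of whole organoids lie at −0.21 to −0.08, and the points of the other comparisons lie between −0.09 and 0.14.

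In the irradiation cohort without irradiation, VIP for 48 h gave no call among the 40 members, and Dimt1 came closest. None passed the threshold (0.742% of 9976 genes, 0.481% higher and 0.261% lower), and 5 had an unadjusted p under 0.05 (12.4% of all genes), 4 higher and 1 lower. DESeq2 gave an adjusted p for 18 members, called 0 of them (4.18% of the genes it adjusted) and had 2 members with an unadjusted p under 0.05. The median was 0.03, with 26 members above 0 and 14 below (50.6% of all genes).

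Dimt1 had 10.7, 15.6, 13.2 and 14 CPM in untreated cells and 20.6, 25.6, 23.4 and 22.5 CPM with VIP. All 4 mice were higher and the groups did not overlap (3.58% of all genes). Its log2 fold change was 0.78 (SE 0.20, 95% interval 0.38 to 1.19, edgeR adjusted p = 0.0567), and in 10 alternatives the adjusted p ranged from 0.0506 to 0.192. Tsr1, a late factor of the small subunit, had 44.5, 33.2, 32.6 and 45.9 CPM without and 33.7, 27.9, 31.2 and 31.6 CPM with VIP. It was lower in all 4 mice, with overlap, at −0.32 (SE 0.15, edgeR adjusted p = 0.377). Wdr75 and Utp15, both of the small subunit processome, were at 0.26 (SE 0.12) and 0.32 (SE 0.22). Rrp12, with 2.51 to 6.87 CPM untreated and 0.607 to 5.84 CPM with VIP, was at −0.73 (SE 0.48) on few counts.

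Myc had 299, 366, 337 and 319 CPM in untreated cells and 340, 315, 338 and 283 CPM with VIP. Mice moved in both directions and the fold change was −0.05 (SE 0.08, 95% interval −0.21 to 0.11). Ncl had 1130, 1030, 997 and 1020 CPM against 1030, 980, 999 and 1230 CPM (0.02, SE 0.08). Npm1 was higher in 4 of 4 mice by little, from 850, 872, 840 and 932 CPM to 915, 960, 929 and 994 CPM, at 0.12 (SE 0.06, edgeR adjusted p = 0.4). Dkc1, with 225, 266, 277 and 280 CPM against 259, 307, 300 and 288 CPM, was also higher in 4 of 4 mice at 0.14 (SE 0.08, edgeR adjusted p = 0.507). Fbl was at −0.16 (SE 0.22).

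In all, 6 members were higher (10.2% of all genes) and 3 lower (10.5%) in every mouse, and 33 of 40 intervals lay within a 1.5-fold change. Of the further pathway genes, Ruvbl1, a helicase that helps to assemble snoRNPs, rose by 0.46 (SE 0.10, edgeR adjusted p = 0.032), from 79.7, 113, 92.7 and 104 CPM to 123, 122, 123 and 165 CPM. It passed in 6 of 10 alternatives, with an edgeR adjusted p of 0.114 without the block. Ldha rose by 0.42 (SE 0.08, edgeR adjusted p = 0.00752), from 1740, 1720, 1630 and 1500 CPM to 2890, 2380, 1890 and 1770 CPM, and passed in 7 of 10, with an edgeR adjusted p of 0.0595 without the block. Mxd1 was at −0.03 (SE 0.31). In the same samples the summed stem cell markers were at 3990 to 5160 CPM without and 6000 to 6520 CPM with VIP, with 1 of 11, Olfm4, past the threshold. Of 26 cycling genes Mcm3 rose, the enterocyte markers Fabp1 and Fabp2 and the p53 targets Cdkn1a and Bbc3 fell, and all 8 Paneth and all 10 enteroendocrine markers were fitted below 0 with 0 past the threshold. The part of these shifts was not tested.

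After irradiation with 6 Gy, VIP again gave no call. None of the 40 members passed in edgeR (0.221% of all genes, 0.13% higher and 0.0902% lower) or in DESeq2 (0.0897%), and 1, Ddx21, had an unadjusted p under 0.05 in edgeR (5.75% of all genes) and in DESeq2. Ddx21, an RNA helicase that links rRNA transcription and processing, had 147, 192, 175 and 167 CPM in irradiated untreated cells and 140, 147, 126 and 148 CPM in irradiated VIP-treated cells. It was lower in all 4 mice, with overlap, at −0.28 (SE 0.11, edgeR adjusted p = 0.616). Tsr1 was at 0.28 (SE 0.15), Dimt1 at 0.37 (SE 0.20), Nop56 at 0.11 (SE 0.11), Rrp12 at −0.29 (SE 0.39) and Polr1a at −0.30 (SE 0.28).

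Myc had 319, 292, 288 and 329 CPM without and 336, 294, 326 and 323 CPM with VIP after irradiation. The values overlapped almost fully, at 0.06 (SE 0.08, 95% interval −0.10 to 0.22). Ncl was at −0.04 (SE 0.08), Npm1 at 0.00 (SE 0.06), Fbl at −0.15 (SE 0.23) and Dkc1 at −0.09 (SE 0.08). Over the list the median was −0.01, with 21 members below 0 (50.6% of all genes), 1 member higher in every mouse (7.45% of all genes), 3 lower (7.06%) and 35 of 40 intervals within a 1.5-fold change. None of the further genes of the pathway passed. In the same samples the stem cell marker Olfm4 rose, the enterocyte marker Fabp1 and the goblet cell marker Fcgbp fell, and their part was not tested.

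Irradiation of untreated cells raised 13 of 15 p53 targets but called no member. None of the 40 passed in edgeR (4.46% of all genes, 2.87% higher and 1.59% lower) or in DESeq2 (2.56%), while 2 had an unadjusted p under 0.05 in edgeR and in DESeq2 (16.7% of all genes in edgeR). Ddx21 had 165, 110, 133 and 128 CPM without and 147, 192, 175 and 167 CPM with irradiation. It was higher in 3 of 4 mice and lower in mouse 1, at 0.34 (SE 0.11, 95% interval 0.13 to 0.56, edgeR adjusted p = 0.0658). Utp20, a large scaffold of the small subunit processome, had 21.3, 9.39, 9.73 and 12 CPM against 18.3, 25.8, 14.5 and 25.1 CPM, also lower only in mouse 1, at 0.66 (SE 0.27, edgeR adjusted p = 0.202). Without mouse 1 both passed, Ddx21 at 0.54 (edgeR adjusted p = 0.00178) and Utp20 at 1.08 (edgeR adjusted p = 0.0258).

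Myc had 299, 366, 337 and 319 CPM without and 319, 292, 288 and 329 CPM with irradiation, with 2 mice in each direction and a fold change of −0.11 (SE 0.08, 95% interval −0.27 to 0.06). Ncl, at 0.13 (SE 0.08), reached 1380 CPM in irradiated mouse 2 against 1040 to 1080 CPM in the others. Npm1 was at 0.05 (SE 0.06), Fbl at −0.24 (SE 0.22), Dkc1 at 0.09 (SE 0.08), Tsr1 at −0.27 (SE 0.15), Noc2l at −0.15 (SE 0.08) and Rrp12 at 0.54 (SE 0.40). The median over the members was 0.05, 15 were fitted below 0 (50.7% of all genes), 4 were higher in every mouse (11% of all genes), 1 lower (11%), and 35 of 40 intervals lay within a 1.5-fold change. Among 41 further large subunit factors with enough counts, Mak16 rose by 0.32 (SE 0.08, edgeR adjusted p = 0.0236) and Nop53 fell, at −0.25 (SE 0.07, edgeR adjusted p = 0.0348), each past the threshold in 3 of 10 alternatives, and without the block the edgeR adjusted p was 0.0653 and 0.0372. Of the 41 small subunit factors 0 passed.

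Irradiation of VIP-treated cells likewise called none of the 40 members in edgeR (7.78% of all genes, 4.32% higher and 3.46% lower) or in DESeq2 (4.35%), with 3 at an unadjusted p under 0.05 in edgeR (21.7% of all genes) and 1 in DESeq2. Noc2l, a factor of large subunit maturation that comes under no part of the naming rule here and is given because it was nearest the threshold, had 424, 526, 470 and 466 CPM without and 421, 357, 415 and 413 CPM with irradiation. It was lower in all 4 mice without overlap (6.53% of all genes), at −0.22 (SE 0.08, edgeR adjusted p = 0.0853), and without mouse 1 it passed at −0.29 (edgeR adjusted p = 0.0336). Tsr1 had 33.7, 27.9, 31.2 and 31.6 CPM against 45.9, 40.6, 37.5 and 32.5 CPM, higher in all 4 mice, at 0.32 (SE 0.15, edgeR adjusted p = 0.199). Rrp12 was at 0.98 (SE 0.46) on low counts, Utp20 at 0.47 (SE 0.27), Polr1a at −0.22 (SE 0.28) and Utp15 at −0.32 (SE 0.22).

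Myc had 340, 315, 338 and 283 CPM without and 336, 294, 326 and 323 CPM with irradiation, at 0.01 (SE 0.08, 95% interval −0.15 to 0.17). Ncl was at 0.07 (SE 0.08), Npm1 at −0.07 (SE 0.06), Fbl at −0.23 (SE 0.23) and Dkc1 at −0.14 (SE 0.08). The median was −0.02, with 21 members below 0 (49.8% of all genes), 6 members higher in every mouse (13.5% of all genes), 2 lower (14.2%) and 34 of 40 intervals within a 1.5-fold change. Of 31 other textbook targets of Myc, 5 fell and 1 rose, among them Ldha at −0.41 (SE 0.08, edgeR adjusted p = 0.00138), from 2890, 2380, 1890 and 1770 CPM to 1850, 1590, 1630 and 1560 CPM. Ccnd2, a D-type cyclin, rose by 0.30 (SE 0.07, edgeR adjusted p = 0.00396), and Eif4a1, a translation initiation helicase, fell, at −0.36 (SE 0.09, edgeR adjusted p = 0.0169). Of the 31 targets, 26 were fitted below 0 and 5 above (median −0.14). The snoRNP assembly factors had 9 below 0 and 1 above (median −0.14). Further factors of small and large subunit maturation had medians of 0.00 and 0.06. The maturation factors Rrp7a at −0.44 (SE 0.11, edgeR adjusted p = 0.0121) and Npm3 at −0.60 (SE 0.18, edgeR adjusted p = 0.0404) also fell. Without the block Rrp7a (edgeR adjusted p = 0.0584), Npm3 (0.0555) and Eif4a1 (0.0517) did not pass, while Ldha and Ccnd2 did. The VIP and irradiation comparisons of this cohort share samples, so their values are set side by side and not as support for each other.

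Cell type markers moved with irradiation in the same samples. All 8 Paneth cell markers rose in untreated cells, with sums of 10100 to 14700 CPM without and 14700 to 28600 CPM with irradiation, 5 of 10 enteroendocrine, 6 of 10 goblet and 5 of 12 enterocyte markers rose, and 2 of 11 stem cell markers fell, with sums of 3990 to 5160 CPM and 3050 to 3590 CPM. In VIP-treated cells 8 of 8 Paneth, 9 of 10 enteroendocrine, 4 of 10 goblet and 1 of 12 enterocyte markers rose, and 3 of 11 stem cell markers fell, with sums of 6000 to 6520 CPM without and 3710 to 4380 CPM with irradiation. Of 26 cycling genes, 1 rose in untreated and 2 fell in VIP-treated cells. Of 7 fibroblast markers only Vim had enough counts for the test, and it rose in both. The part of these shifts in the members' values was not tested.

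The interaction of VIP with irradiation called no member (0% of 9976 genes), and DESeq2 called 0 members (0.0109% of all genes). At an unadjusted p under 0.05 stood 2 members in edgeR (6.36% of all genes) and 1 in DESeq2. The difference was coded as the VIP effect after irradiation minus that without. Tsr1, chosen after its values were seen, stood at 0.60 (SE 0.21, 95% interval 0.17 to 1.03, edgeR adjusted p = 0.687), and Ddx18, chosen in the same way, at −0.39 (SE 0.16, edgeR adjusted p = 0.688). Myc stood at 0.12 (SE 0.11, 95% interval −0.11 to 0.34), and the median over the members was −0.04, with 25 below 0 (49.1% of all genes), against 0.01 over all genes.

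**Figure D3:**
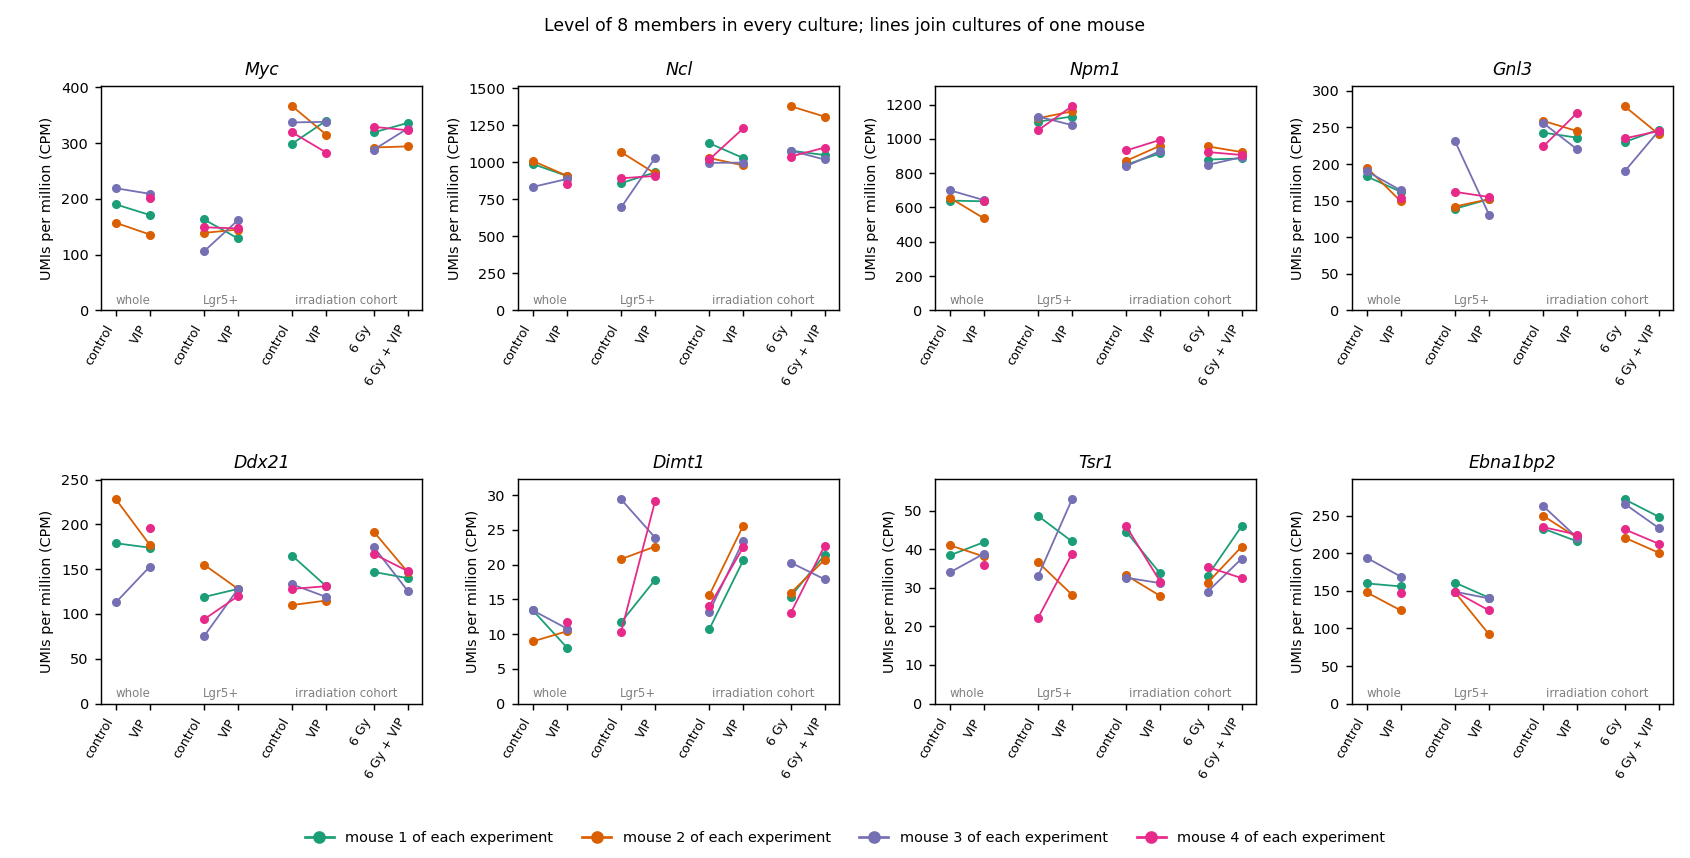
Level in CPM of 8 members in every culture, 1 panel per gene with its own linear axis from 0, and lines joining the untreated and VIP-treated cultures of a mouse. Mouse numbers are coloured alike across experiments but are different mice, and the 3 experiments were scaled separately. Gnl3 in whole organoids and Dimt1 in the non-irradiated cohort are the panels in which the groups of that comparison do not overlap, besides Ebna1bp2 in both sets of non-irradiated sorted cells.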

How the data were processed

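The authors sequenced 3′ bulk libraries with UMIs, ran the Drop-seq pipeline on GRCm38 with a GENCODE annotation, and deposited the resulting counts as whole, unscaled UMIs. The strand setting of the counting is not given in the sources used here. Technical libraries of a culture were summed. The test was that of edgeR 4.0.16 in R 4.3.3: filterByExpr by group, TMM factors, quasi-likelihood F tests with the mouse number as a block, and Benjamini-Hochberg adjustment over all genes tested, with a threshold of 0.05. The irradiation cohort was fitted as 1 model of 16 samples. The SE is the log2 fold change divided by the square root of F, and within-mouse differences used log2 CPM with a prior count of 2. DESeq2 1.42.0, RLE factors, library size only, no filter, no block, leaving out each mouse, single technical libraries and fits of only 2 groups were the alternatives. All tests ran on all genes, and the scripts were tested on simulated data.

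Same-mouse deviations correlated at 0.27 to 0.63 in whole organoids, at 0.03 to 0.21 in Lgr5-EGFP+ cells and at −0.03 to 0.16 in the irradiation cohort. Those of different mice correlated at −0.54 to 0.33, −0.14 to 0.15 and −0.10 to 0.05 in the same order, so the ranges overlapped. Pairing rests on the mouse numbers in the labels.

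The members, lists and alternatives were chosen with earlier results of these data known. The genes named are Myc, Ncl, Npm1, Fbl and Dkc1, the 3 highest and 3 lowest log2 fold changes and any member past the threshold in each comparison, and at most 3 genes past the threshold of each pathway list. No gene set test was run.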

Additional observations from a re-analysis of the deposited data

Results flagged for a closer look

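Among the 19 members that the naming rule gives, 133 sets of 4 samples were searched for a sample far from the other 3, by Dixon's ratio. In these, 9 were found, where chance gives about 1 in 20 for normally distributed values. Over all 40 members 16 were found in 280 sets. The naming rule uses fold changes of these data, and the share over all genes was not computed. In VIP-treated whole organoids mouse 2 was low for Npm1, with 537 CPM against 636 to 643 CPM, and for Dkc1, with 132 CPM against 152 to 156 CPM. In untreated Lgr5-EGFP+ cells Fbl stood at 36.6 CPM in mouse 2 against 20.1 to 22 CPM, and Ebna1bp2 at 161 CPM in mouse 1 against 148 to 149 CPM. In VIP-treated Lgr5-EGFP+ cells Ddx21 stood at 120 CPM in mouse 4 against 128 CPM in the others, and Gnl3 at 131 CPM in mouse 3 against 152 to 155 CPM. In the irradiation cohort mouse 2 held the far value each time, for Utp15 in untreated cells (23.8 CPM against 16.6 to 17.6 CPM), for Ncl in irradiated untreated cells (1380 CPM against 1040 to 1080 CPM) and for Noc2l in irradiated VIP-treated cells (357 CPM against 413 to 421 CPM).

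A pair of members moved in opposite directions in every mouse of 2 settings, 1 of 40 for VIP without against with irradiation (0.862% of 9976 genes) and 1 of 40 for irradiation without against with VIP (0.702%). Both belong to the same interaction. The same search for VIP in whole organoids against Lgr5-EGFP+ cells gave 0 of 39 members (1.83% of 6770 genes). Ddx18, a helicase of large subunit maturation, was higher with VIP in all 4 mice without irradiation and lower in all 4 after it, with an interaction of −0.39 (edgeR adjusted p = 0.688). In non-irradiated cells its levels were 47, 48.8, 58.4 and 65.9 CPM without VIP and 66.5, 63.2, 60.4 and 73.5 CPM with it. In irradiated cells they were 55.6, 66.5, 63.8 and 66.1 CPM without VIP against 50.2, 62.1, 60.8 and 59.5 CPM with it. Tsr1 was lower with irradiation in all 4 untreated mice and higher in all 4 VIP-treated ones, with an interaction of 0.60 (edgeR adjusted p = 0.687). Neither interaction passed.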

How the results depend on the processing

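Of 160 counts of members past the threshold and medians over the members under the alternatives, 153 stayed the same by the rules used (a count within 1.5 times, a median within 1 SD between mice). In whole organoids the count of 0 became 1 with the first technical library only (median −0.06, 25 of 40 below 0) and 2 without the second library of VIP-treated mouse 3, and it was 0 to 3 leaving out each mouse. Leaving out each mouse gave 0 to 2 for irradiation of untreated cells and 0 to 1 for irradiation of VIP-treated cells, with the higher count without mouse 1 each time, and the median of the interaction of VIP with irradiation ranged from −0.06 to 0.02. The shares of all genes past the threshold under these alternatives are not given here, so these counts were not set against them. Without the replicate block, 0 members passed in every comparison, and the median in whole organoids was −0.12. Of 754 values of single genes, 687 kept direction and side, 51 lost and 4 gained the threshold and 12 changed sign, none of them a called value. These were, in whole organoids, Myc at 0.03 with the first technical library only, and the rest leaving out a mouse: Fbl in whole organoids (−0.37 to 0.01), with VIP in Lgr5-EGFP+ cells Myc (−0.11 to 0.20), Ncl (−0.03 to 0.23) and Rrp1b (−0.40 to 0.02), with VIP in non-irradiated cells Myc (−0.12 to 0.01), Ncl (−0.07 to 0.08) and Fbl (−0.35 to 0.02), with VIP in irradiated cells Fbl (−0.41 to 0.03) and Dkc1 (−0.16 to 0.03), and with irradiation of VIP-treated cells Myc (−0.05 to 0.04) and Ncl (−0.04 to 0.16). Not among these 12 were Npm1 with VIP in irradiated cells, at 0.00 with a range of −0.02 to 0.02, and Bysl in whole organoids (−0.00 to 0.38). The cause of the changes was not tested. Without the block 11 of the 14 calls among the pathway genes named were lost, Nop53 and, with irradiation of VIP-treated cells, Ldha and Ccnd2 being the exceptions. Among the 6 comparisons of 2 groups, intervals were widest in the Lgr5-EGFP+ cells of the experiment without irradiation, with the lowest depth and the largest spread between mice, which were not separated.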

Other observations

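Ebna1bp2, a factor of large subunit maturation chosen here after its values were seen, was lower with VIP in all 15 within-mouse pairs of the 4 VIP comparisons with all libraries, and in 14 of 15 without the second library of VIP-treated mouse 3 of the whole organoids, which differed from the first. Of 6730 genes tested in all 4, 8 were lower in every pair (0.119%) and 8 higher (0.119%), and Ebna1bp2 was the only member among them. Without that library the difference of Ebna1bp2 in mouse 3 was 0.05 instead of −0.19 on the log2 CPM scale, 7 genes were lower in every pair (0.104%) and 10 higher (0.149%), and 0 of these were members. In whole organoids it had 160, 148 and 194 CPM without and 156, 124, 169 and 147 CPM with VIP. In the irradiation cohort it had 233, 250, 263 and 235 CPM against 216, 221, 221 and 225 CPM without irradiation, and 272, 221, 266 and 232 CPM against 249, 201, 234 and 213 CPM after it. The log2 fold changes were −0.16, −0.29, −0.15 and −0.14 in the order whole organoids, Lgr5-EGFP+ cells, non-irradiated cells and irradiated cells, each with an SE of 0.08 to 0.16, and none passed the threshold (edgeR adjusted p of 0.418, 0.884, 0.435 and 0.917). The last 2 comparisons come from the same 4 mice.

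The members took 0.508 to 0.601% of all UMIs in whole organoids, 0.648 to 0.724% in Lgr5-EGFP+ cells and 0.745 to 0.864% in the irradiation cohort. Within whole organoids the share was 0.588% ± 0.0159 (SD, n = 3) untreated and 0.55% ± 0.0291 (SD, n = 4) with VIP, and the groups overlapped.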
